A study of Arabidopsis thaliana with 16 samples.

Results

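The 75 genes described here are Arabidopsis thaliana shoot genes that stood lower when only the root zone was cooled under a shoot kept at 32 °C. They were chosen from their shoot values in a table of 32833 loci. A gene was taken when its mean in 32 °C shoots was at least 100, its mean in gradient shoots was at most 0.5 of that (1 added to both means), no gradient library reached the lowest 32 °C library, and its mean in 22 °C shoots was at least 10. Of 32548 nuclear loci, 17405 passed the first condition, 117 also the second, 100 also the third, and 75 all 4, which is 0.431% of those 17405. The same rule turned round gave 33 genes that stood higher in gradient shoots.

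The plants were wild-type seedlings, 10 days old, grown on MS1/2 medium for 4 days at 22 °C and then for 6 days in 1 of 3 regimes. These were 22 °C throughout, 32 °C throughout, and a gradient: the shoot was held at 32 °C while the temperature decreased along the root zone. Roots and shoots were sequenced apart, as polyadenylated RNA. The 16 columns held 14 distinct libraries, because a pair of 22 °C root columns and a pair of gradient shoot columns were equal at every locus and each pair was counted once. Shoots thus had 2 libraries from 22 °C, 3 from 32 °C and 2 from the gradient, and roots had 1, 3 and 3. Values are normalised read counts with column totals of 33075029 to 34769425, and the read depth behind them is unknown. The labels do not name separate cultures, so the p-values rest on variation among libraries that may be technical only.

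Organ markers went with the labels. The summed level of 5 green tissue genes was 593944 to 937955 in shoots and 646 to 3172 in roots. Of the 10 root markers none was at 0 in shoots. Their sum was 202550 to 314794 in 32 °C shoots and 222160 to 281008 in gradient shoots, almost all of it from PYK10. Without PYK10 it was 1380 to 2186 and 1366 to 1471. In roots the sum without PYK10 was 31500 at 22 °C, 5535 to 12851 at 32 °C and 27969 to 30815 in the gradient. The root level of these markers thus differed between the warm regimes. In 22 °C shoots the root marker sum was 56323 to 63255, and 1153 to 1507 without PYK10. Of the 5 flower markers none was at 0 in every warm shoot library. Their sums were 110 to 133 in 22 °C shoots, 1120 to 1743 at 32 °C and 1011 to 1015 in the gradient. The 4 stomatal lineage markers summed to 1558 to 1631 in 22 °C shoots, 1929 to 2095 at 32 °C and 2341 to 2345 in the gradient. The part of these marker levels in the members' values was not tested.

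Roots and shoots exchange water, mineral ions, sugars and hormones, so the temperature of one can alter the RNA of the other. Heat exposes unfolded protein surfaces, and heat shock factors then raise chaperone genes. Plants short of sulfur raise a set of genes that spare and remobilise it, and plants whose mitochondria are impaired raise detoxification, efflux and mitochondrial stress genes through transcription factors that bind a short promoter motif. All 3 of these responses have members among the 75 genes.

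In gradient shoots the members stood 2.0 to 6.88-fold below 32 °C shoots, with a median of 2.4-fold, and 13 of them at least 3-fold below. These shoot folds are ratios of means with 1 added, and since they chose the members they were not tested. Over the 17405 loci the libraries of gradient shoots all lay below those of 32 °C shoots at 18.1% without any limit on the ratio. Across all 21837 genes tested in shoots, 0.266% were called lower and 0.124% higher in the gradient than at 32 °C (limma, adjusted p under 0.05). Just inside the limit of 0.5 were AT2G20142 at 49.9%, the heat shock factor gene HSFA2 at 49.86% and FRD3 at 49.51% of the 32 °C level. Just outside were AT5G39670 at 50.1%, MSL9 at 50.12% and OCT1 at 50.18%. In bulk tissue, fewer cells that express a gene and less RNA per cell cannot be told apart.

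**Figure D1:**
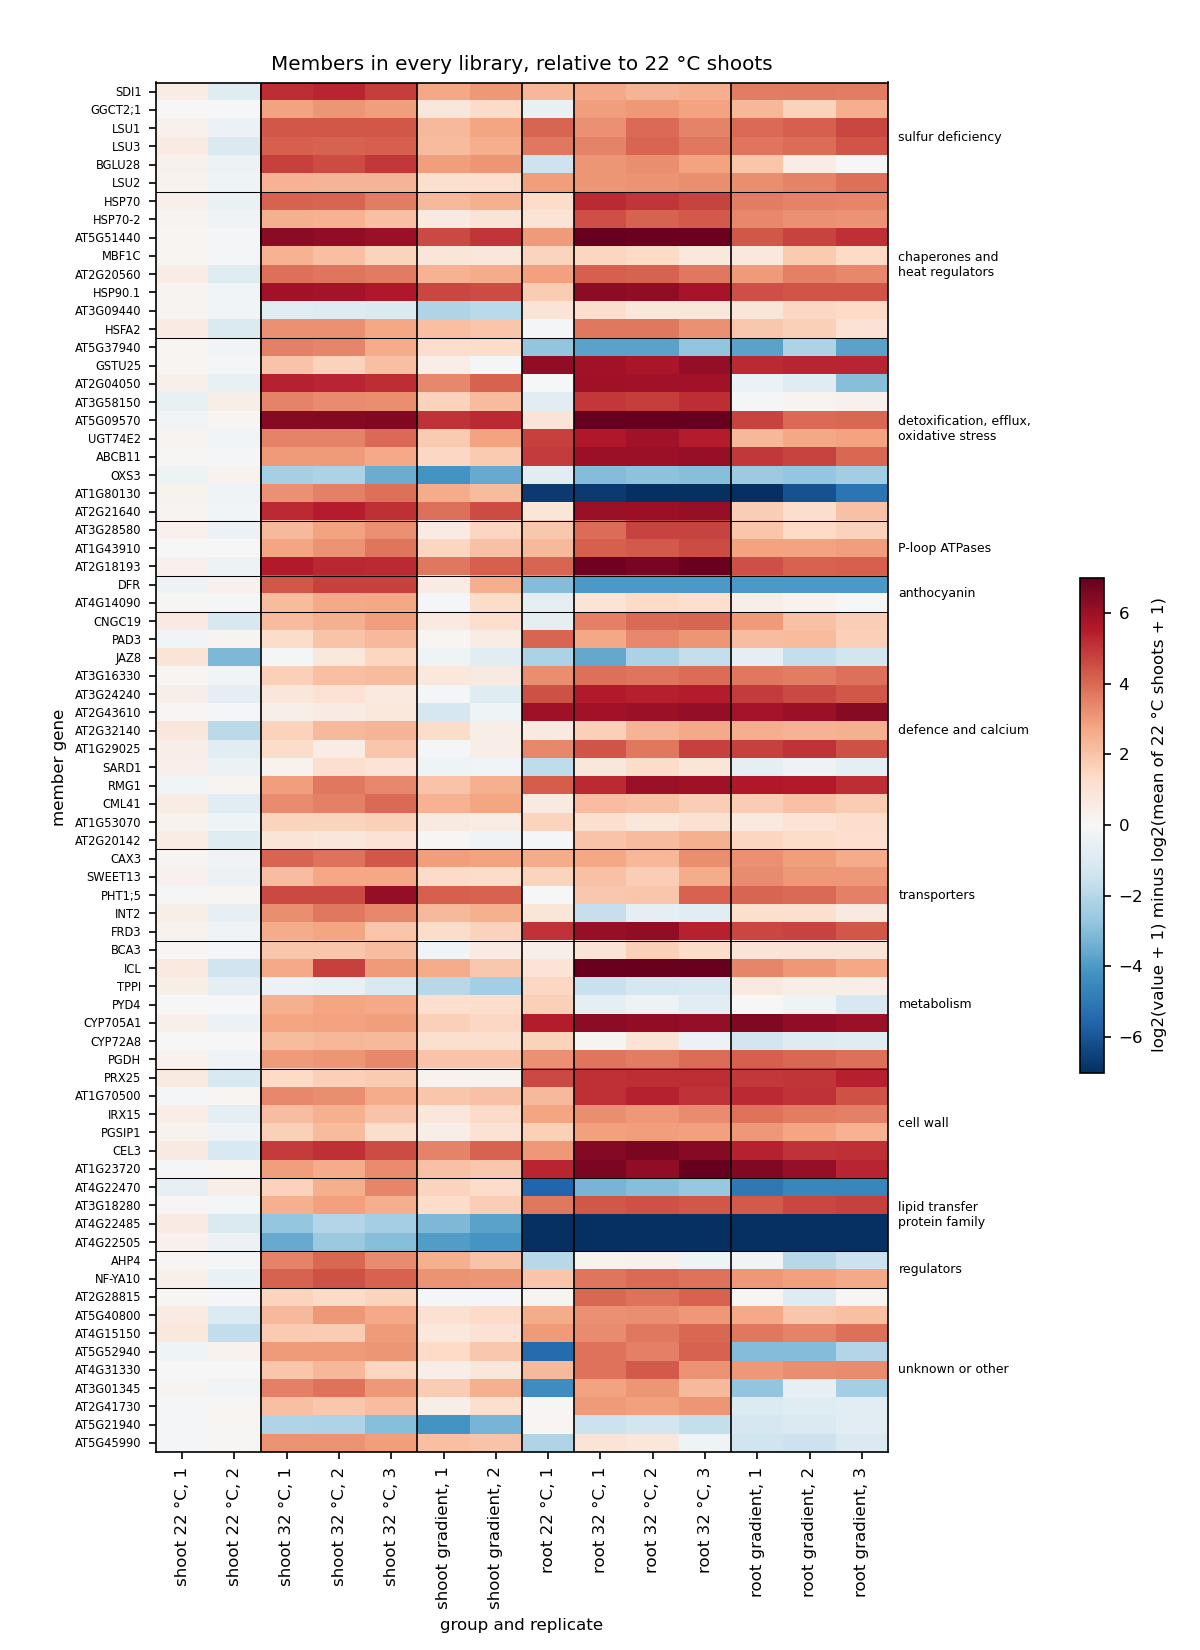
All 75 members (rows, grouped by role) in the 14 libraries (columns), as log2(value + 1) minus the log2 of the 22 °C shoot mean + 1, with colours saturated at the ends of the scale. Most rows are red in 32 °C shoots and paler in gradient shoots, while in roots the rows of one group can differ in colour.

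The upstream sequence of several members held a motif that is shown here because its carriers also stood lower in gradient roots. The mitochondrial dysfunction motif, CTTG and CANG set apart by 5 free bases (N is any base), the binding motif of membrane-bound NAC factors in Arabidopsis, was searched on both strands in the 300 bases before each annotated start. It was found before 9 of the 75 members (12%) and before 570 of 27443 nuclear protein-coding genes (2.08%). Among the 17222 of them with a 32 °C shoot mean of at least 100, 268 (1.56%) held it. This motif and the sulfur motif below were added after the members' identity was known. Sequences are RefSeq's, on TAIR10.1, 5′ to 3′ on the gene's strand, with the match in capitals; a gene start without an annotated leader can lie at its coding start, so AT2G28815, the remaining carrier, is named only.
AT2G21640, an oxidative stress marker protein, chr2:9254309-9254357, + strand: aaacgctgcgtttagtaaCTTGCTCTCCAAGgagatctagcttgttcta
AT2G04050, a MATE efflux protein, far match, chr2:1339653-1339701, - strand: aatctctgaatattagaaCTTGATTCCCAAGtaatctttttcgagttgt
AT2G04050, near match, chr2:1339594-1339642, - strand: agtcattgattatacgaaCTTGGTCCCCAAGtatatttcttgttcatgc
AT5G51440, an HSP20-like chaperone, chr5:20891035-20891083, + strand: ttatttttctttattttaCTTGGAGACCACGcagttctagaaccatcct
AT3G58150, an OPA3 family protein, chr3:21534136-21534178, - strand: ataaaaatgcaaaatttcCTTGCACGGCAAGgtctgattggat
AT3G28580, a P-loop ATPase, chr3:10715359-10715407, + strand: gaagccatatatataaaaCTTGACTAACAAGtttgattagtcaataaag
AT2G18193, a P-loop ATPase, chr2:7919405-7919453, - strand: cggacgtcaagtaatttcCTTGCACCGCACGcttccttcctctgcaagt
ABCB11, an ATP-driven exporter, chr1:523431-523479, + strand: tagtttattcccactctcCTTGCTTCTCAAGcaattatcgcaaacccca
AT4G22505, a lipid transfer family protein, chr4:11853139-11853187, - strand: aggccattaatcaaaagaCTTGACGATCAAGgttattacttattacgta
The matches began 51 bases before the start in AT2G21640, 215 and 156 bases before it in AT2G04050 and 25 bases before it in AT3G58150. In AT5G51440 the motif overlaps a sulfur response element core, GAGAC.

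Other motifs gave the following shares. The heat shock element GAANNTTC was found before 12% of members and 11.5% of all genes, and its tail-to-tail form TTCNNGAA before 9.33% and 9.38%. The abscisic acid response element core ACGTGT was found before 18.7% and 11.8%, and GAGAC before 40.0% and 30%. The W-box TTGACC gave 13.3% and 14.0%, the G-box CACGTG 8.0% and 7.09%, and the site II motif TGGGCC 10.7% and 14.6%. The PHR1 site core GNATATNC, bound by a phosphate starvation factor, was found before 2.67% of members and 6.5% of all genes. HSFA2 is shown for the heat shock element, of which it has 2 matches that do not overlap each other, and AT5G51440 for a stretch that holds both kinds of motif.
HSFA2, far match, chr2:11135518-11135561, + strand: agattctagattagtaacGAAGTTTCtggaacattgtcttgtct
HSFA2, near match, chr2:11135573-11135616, + strand: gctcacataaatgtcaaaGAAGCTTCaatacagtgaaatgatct
AT5G51440, tail-to-tail match, chr5:20891051-20891094, + strand: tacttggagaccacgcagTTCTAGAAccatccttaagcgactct
The capitals mark the heat shock element. In HSFA2 the far match also overlaps a tail-to-tail match that begins 83 bases before the start.

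**Figure D2:**
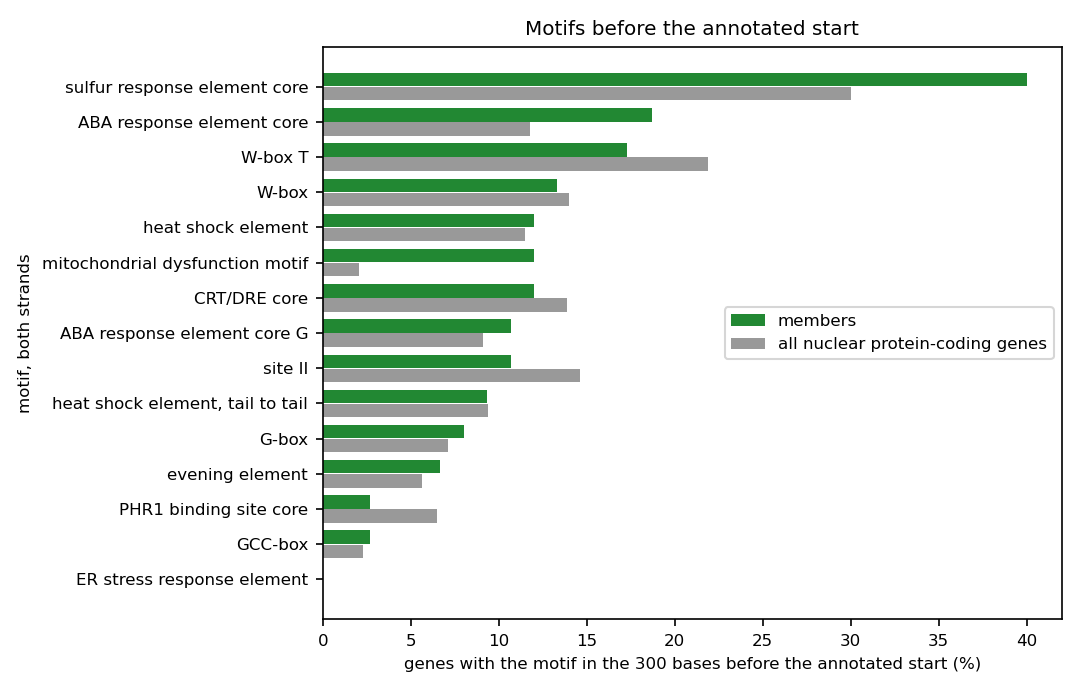
Share of genes with each motif in the 300 bases before the annotated start, for the 75 members (green) and for 27443 nuclear protein-coding genes (grey). The mitochondrial dysfunction motif was found before 12% of members and 2.08% of all genes, while for the heat shock element the bars are 12% and 11.5%.

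Set against 22 °C shoots, most members were genes that stood high at 32 °C and part of the way back in the gradient. At 32 °C, 64 of the 75 stood at least 2-fold above 22 °C shoots, 4 at least 2-fold below, and 7 between, with a median of 7.05-fold and a range from 0.126-fold to 86.5-fold. The rule used all 3 groups of shoot libraries, so the counts and calls in this paragraph are a description. Of nuclear loci with a mean of at least 10 in either group, 61.7% had 32 °C shoots all above 22 °C shoots and 17.0% all below. Among the members, 67 were all above and 5 all below. In limma's fit 67 were called higher (all genes 55.6%), 5 lower (13.1%) and 3 were not called. In the gradient, 66.3% of nuclear loci with a mean of at least 10 in either group lay wholly above 22 °C shoots and 18.1% wholly below. Of the members, 55 lay wholly above, 8 wholly below and 12 overlapped. There 51 were called higher (all genes 52.6%), 6 lower (11.2%) and 18 were not called.

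The share of the rise that was left in the gradient differed between members. Over the 64 genes with at least a 2-fold rise, a median of 56.8% of the log2 difference between 32 °C and 22 °C shoots remained. Of these, 26 genes kept less than 50%. The rule's fall of at least 2-fold limits this share, and the limit is lower for genes with smaller rises. The share therefore partly restates the size of the rise. AT2G21640 kept the most, 80.6%. AT2G28815, annotated as a ribosomal protein L16, kept -7.84%: it stood at 67 and 61 in 22 °C shoots, at 188, 162 and 188 at 32 °C and at 60 and 58 in the gradient. All 3 libraries at 32 °C were above the rest, and the gradient libraries were just below those of 22 °C. TMM scaling, which assumes that most genes do not change, moved the median of all genes from 0.492 to 0.0403 for 32 °C minus 22 °C and from 0.484 to 0.0364 for gradient minus 22 °C (log2), and gave 7085 higher and 6629 lower and 6318 higher and 6000 lower genes in place of 12134 and 2852 and 11494 and 2447. Of the members, 63 were then called higher at 32 °C and 41 in the gradient.

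**Figure D3:**
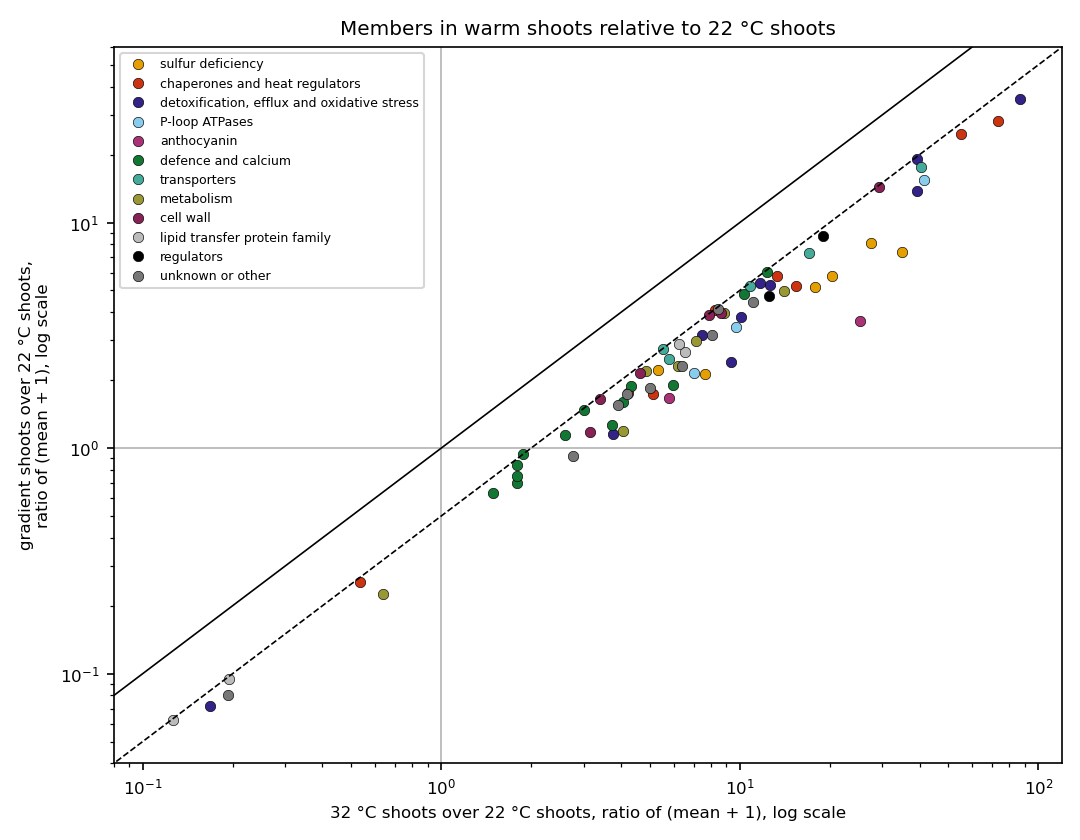
Each member's level in 32 °C shoots (x) and gradient shoots (y) over 22 °C shoots, as ratios of means + 1 on log axes, coloured by role. Points on the solid line would be equal in the 2 regimes; the rule keeps all 75 at or under the dashed line, and 64 of them lie at least 2-fold above 22 °C on the x axis.

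Roots gave values that the rule had not used. One caution applies: across 19679 genes the deviations of same-numbered 32 °C root and shoot libraries correlated at 0.222, 0.318 and 0.352, so the 32 °C libraries of the organs were not wholly apart. The isocitrate lyase gene ICL, for instance, was highest in replicate 2 of both organs and the phosphate transporter gene PHT1;5 in replicate 3 of both. Of the 75 members 70 passed the filter of the root fit, a value of 10 in 2 libraries. Of these, 5 would not have passed without 32 °C roots, where they were high: AT5G52940, AT4G22470, AT3G01345, AT5G45990 and AHP4. All 5 are among the members called higher in 32 °C than in 22 °C roots in the next paragraph. All but AHP4 are also among those called lower in gradient roots. The filter had set the direction of these calls. The 5 not tested were DFR, AT1G80130, AT5G37940, AT4G22505 and AT4G22485. The contrasts with 22 °C rest on 1 root library that was taken to vary like the others.

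In gradient against 32 °C roots, 36 of the 70 tested members (51.4%) were called lower, 8 higher and 26 not, where 30.2% of all 21757 genes were called lower and 12.6% higher (limma, adjusted p under 0.05). Counting only genes that reach the filter without 32 °C roots, 32 of 65 members were lower and 8 higher, against 29.7% and 13.0% of 21081 genes. Of all 75 members, whatever their root level, 37 lay wholly below in gradient roots, 7 wholly above and 31 overlapped. Of the 21456 nuclear loci with a mean of at least 10 in either group, 38.8% lay wholly below and 16.6% wholly above. The median log2 fold change was -0.74 for members and -0.20 for all genes. TMM scaling brought the latter to 0.01 and the split of all genes from 2747 higher and 6571 lower to 4255 and 3705, and left 10 members higher and 35 lower. In 32 °C against 22 °C roots, 45 members were called higher (all genes 32.1%), 7 lower (11.9%) and 18 not, with a median of 1.23 against 0.29 for all genes. TMM scaling brought this median of all genes to -0.01 and their split from 6980 higher and 2588 lower to 4174 and 4390. Of the 70 members, 31 were called both higher in 32 °C than in 22 °C roots and lower in gradient roots, as were 21.3% of all genes; both comparisons use the 32 °C root libraries. In gradient against 22 °C roots, 27 were called higher (all genes 11.1%), 9 lower (5.1%) and 34 not, with a median of 0.79 against 0.10. TMM scaling gave 1759 higher and 1625 lower genes in place of 2425 and 1110, and 22 members higher and 9 lower.

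Many members were root genes in the control plants. In the 22 °C root library 41 of 75 (54.7%) stood at least 2-fold above the 22 °C shoot mean, where 33.4% of nuclear genes with a mean of at least 10 over the organs at 22 °C did; those genes were not matched to the members' levels. At 16 the ratio was 10 or more, and 13 stood at 0.5 or less of the shoot mean. The largest ratios among members with a named product were those of the glutathione transferase gene GSTU25, with 69 and 57 in 22 °C shoots and 4769 in roots, and of the chitinase gene AT2G43610, with 122 and 112 in shoots and 7254 in roots. These are ratios of 74.5 and 61.5. The root marker sums in shoots given above are the values that bear on root tissue in the shoot samples, and their part was not tested.

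**Figure D4:**
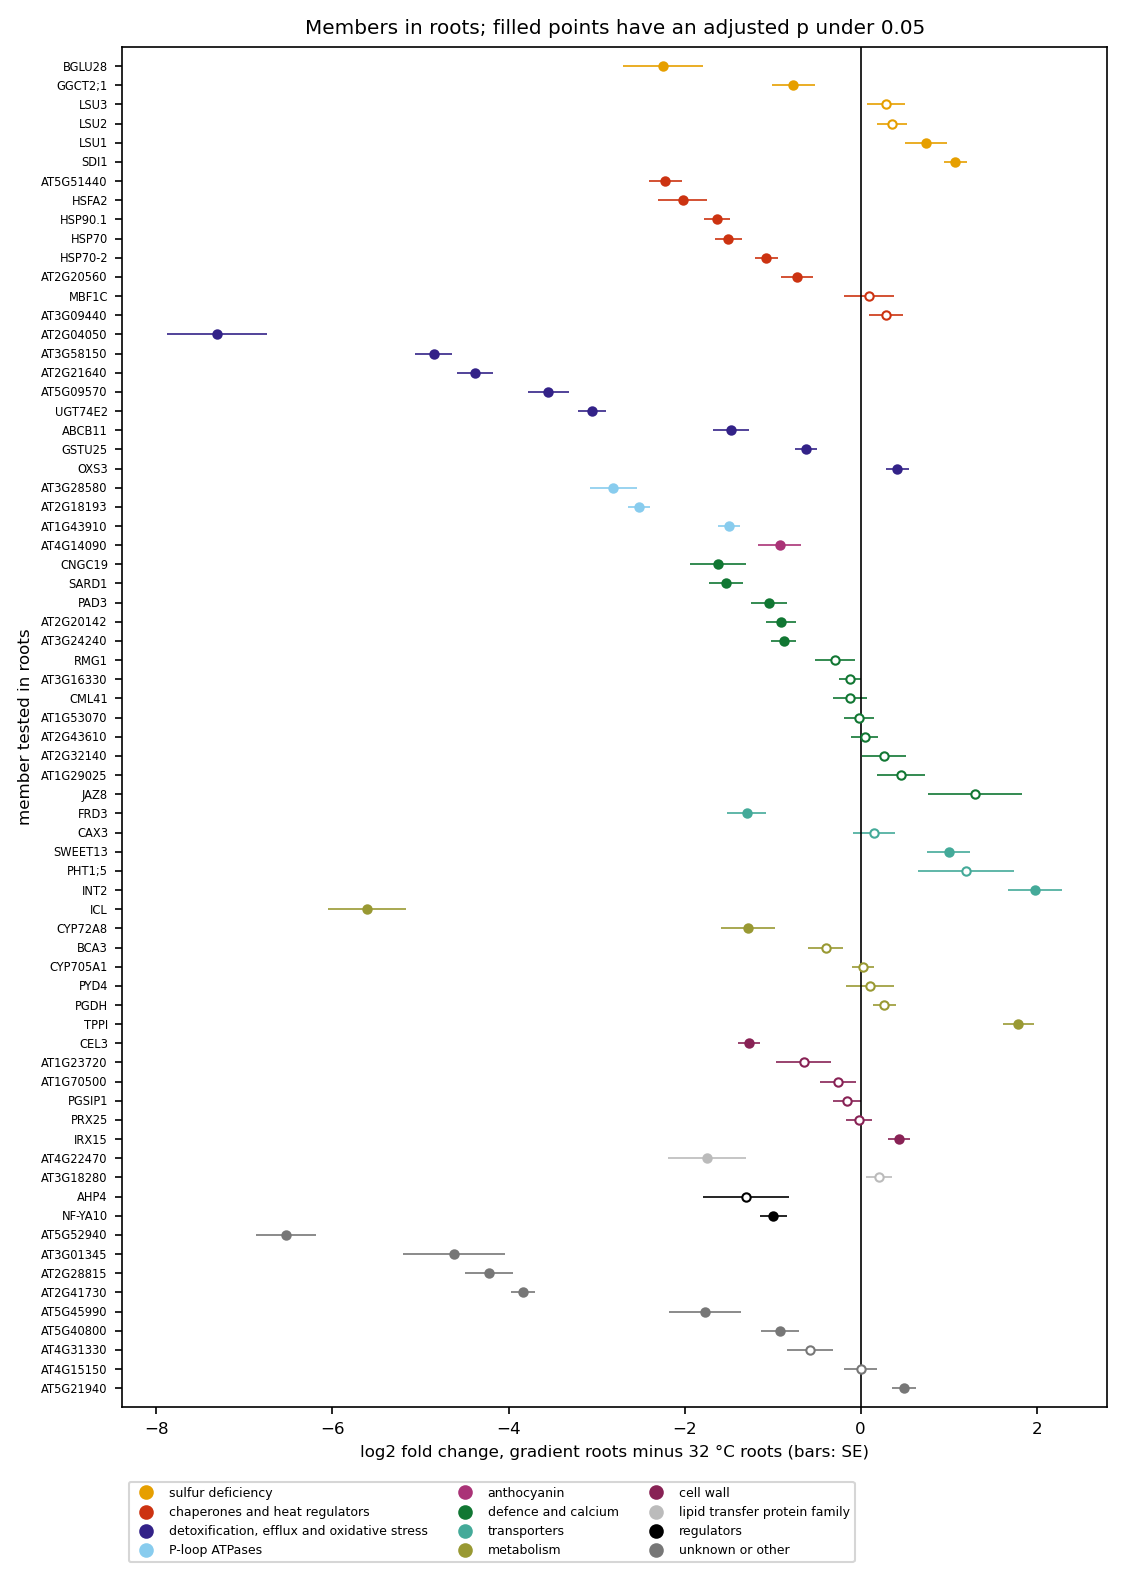
Log2 fold change between gradient and 32 °C roots (points, with SE bars) for the 70 members tested in roots, coloured by role, with filled points for an adjusted p under 0.05. All 3 P-loop ATPase genes and 7 of 8 detoxification genes lie to the left of 0, while INT2, TPPI and SDI1 lie to the right of 0. Of the 70 members 51.4% were called lower, against 30.2% of all genes.

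The 6 sulfur deficiency genes had the deepest falls of any group of 3 or more members, with a median of 3.46-fold and a range from 2.4 to 4.73-fold. SDI1, which represses glucosinolate synthesis when sulfur is short, stood at 43 and 16 in 22 °C shoots, at 1077, 1234 and 889 at 32 °C and at 196 and 253 in the gradient. The 3 regimes did not overlap, and the gradient lay between the others at 7.39-fold above 22 °C. LSU1, a small protein of the low sulfur response, stood at 57 and 35, at 938, 973 and 943, and at 225 and 319 in the same order. Its 32 °C values were close together and more than 2-fold above either gradient library. Its relatives LSU3 and LSU2 stood 3.43-fold and 2.4-fold lower in the gradient than at 32 °C.

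BGLU28, a glucosidase thought to release sulfur from glucosinolates, stood at 39 and 24, at 890, 766 and 1018, and at 246 and 281. GGCT2;1, which breaks down glutathione, stood at 37 and 36, at 261, 313 and 284, and at 64 and 94. For both, the regimes were again apart, with the gradient nearer to 22 °C in GGCT2;1 (2.13-fold above it) than in BGLU28 (8.14-fold). The list of sulfur genes held 14. Of the 8 that were not members, 2 were called lower and none higher in gradient than in 32 °C shoots (limma). Of all genes, 0.266% and 0.124% were. At an unadjusted p under 0.05 the list counts were 6 and 0. No share of all genes is given for unadjusted p-values, here or for the lists below. The lists were chosen with earlier results known, and this contrast is the rule's own. These 8 included the sulfate-reducing enzyme genes APR3, at 68.1% of its 32 °C level, and APR1, at 50.5%, and SHM7, a serine hydroxymethyltransferase gene of this response, at 67.8%.

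In roots the same 6 genes went different ways. SDI1 stood at 154 in 22 °C roots, at 191, 158 and 179 at 32 °C and at 365, 384 and 365 in the gradient. The gradient roots were the highest here, whereas gradient shoots were below 32 °C shoots, and the root log2 fold change of gradient minus 32 °C was 1.08 ± 0.13 (SE, adjusted p = 0.00127). LSU1 was also called higher in gradient roots, by 0.74 ± 0.24 (adjusted p = 0.0383), but not without replicate 1 (adjusted p = 0.129) or 3 (0.0927) of the 32 °C roots or replicate 2 (0.0852) or 3 (0.0759) of the gradient roots. LSU2 (0.36 ± 0.17) and LSU3 (0.29 ± 0.21) were not called, and TMM scaling brought LSU2 to 0.56 (adjusted p = 0.0285), as did leaving out gradient root replicate 1 (0.50, adjusted p = 0.0358). BGLU28 was called lower, at 272, 310 and 230 in 32 °C roots and 125, 45 and 31 in the gradient (-2.24 ± 0.45, adjusted p = 0.00661). GGCT2;1 was called lower (-0.76 ± 0.24, adjusted p = 0.0345), a call that ended with TMM scaling (-0.56, adjusted p = 0.0893), with the replicate block (adjusted p = 0.0532) and without replicate 1 (0.0935), 2 (0.105) or 3 (0.0594) of the 32 °C roots or replicate 2 (0.087) of the gradient roots.

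Of the 8 chaperone and heat regulator genes 7 were called higher in 32 °C than in 22 °C shoots (limma). So were 89.3% of all members and 55.6% of all genes, and the members were chosen with these libraries. HSP70, a cytosolic chaperone, stood at 794 and 443 in 22 °C shoots, at 10721, 10354 and 7489 at 32 °C and at 2978 and 3498 in the gradient. HSP90.1, the heat-inducible cytosolic HSP90, stood at 207 and 160, at 11008, 10484 and 9019, and at 4643 and 4433. Both had no overlap between regimes, and in the gradient both stayed well above 22 °C, at 5.23-fold and 24.6-fold. The HSP20-like chaperone gene AT5G51440 stood at 27 and 22, at 2001, 1884 and 1709, and at 627 and 815, and kept 77.9% of its log2 rise.

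The regulators MBF1C, a heat-induced coactivator, and HSFA2, a heat shock factor that prolongs the response, stood 2.4-fold and 2.01-fold lower in the gradient than at 32 °C. The DNAJ co-chaperone gene AT2G20560 stood 2.3-fold lower and HSP70-2 2.94-fold lower. AT3G09440, an HSP70 family gene, differed from the others against 22 °C: it stood at 3100 and 2431 in 22 °C shoots, at 1584, 1477 and 1368 at 32 °C, and at 650 and 756 in the gradient. Its 22 °C libraries were the highest. HSP70 genes are near-identical in parts, and it is not stated how shared reads were counted, so their single values are uncertain.

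The heat shock list held 38 genes. Of the 32 non-members tested in shoots, 4 were called lower and none higher in the gradient than at 32 °C (limma). Of all genes, 0.266% and 0.124% were. At an unadjusted p under 0.05 the list counts were 17 and 3, with no share of all genes to set beside them. The list was chosen with earlier results known and this contrast is the rule's own, so these counts are a description. These 33 non-members included ROF2, a heat-induced immunophilin gene, at 51.5% of its 32 °C level, GOLS1, a galactinol synthase gene, at 65.0%, and HSP17.6B, a cytosolic small heat shock protein gene, at 80.8%. Another 2 small heat shock protein genes of the list, named here after their values were seen, met the fall but not the 22 °C limit: HSP23.6 stood at 33.2% and HSP17.6A at 47.3% of the 32 °C level, with means of 1.0 and 5.5 in 22 °C shoots.

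In roots 6 of the 8 were called lower in the gradient than at 32 °C and none higher (limma, adjusted p under 0.05), where 30.2% and 12.6% of all genes were. At an unadjusted p under 0.05 the member counts were 6 and 0, with no share of all genes given. HSP90.1 stood at 14044, 13582 and 10096 in 32 °C roots and at 4240, 3834 and 3973 in the gradient, with 637 at 22 °C. The gradient roots were thus close together and below every 32 °C library, by -1.63 ± 0.14 on the log2 scale (SE, limma adjusted p = 0.000549). AT5G51440 (-2.22 ± 0.19, adjusted p = 0.000492), HSFA2 (-2.02 ± 0.28, adjusted p = 0.0018), HSP70 (-1.50 ± 0.15, adjusted p = 0.000728) and HSP70-2 (-1.07 ± 0.13, adjusted p = 0.00116) were lower as well. AT2G20560 was lower by -0.72 ± 0.18 (adjusted p = 0.015), but not without replicate 1 (adjusted p = 0.0624) or 2 (0.0597) of the 32 °C roots. MBF1C stood at 603, 572 and 363 in 32 °C roots and 362, 759 and 555 in the gradient, which overlap (0.09 ± 0.29, adjusted p = 0.812), and AT3G09440 was not called (0.29 ± 0.20, adjusted p = 0.265), with 0.49 and an adjusted p = 0.0387 without gradient root replicate 1.

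**Figure D5:**
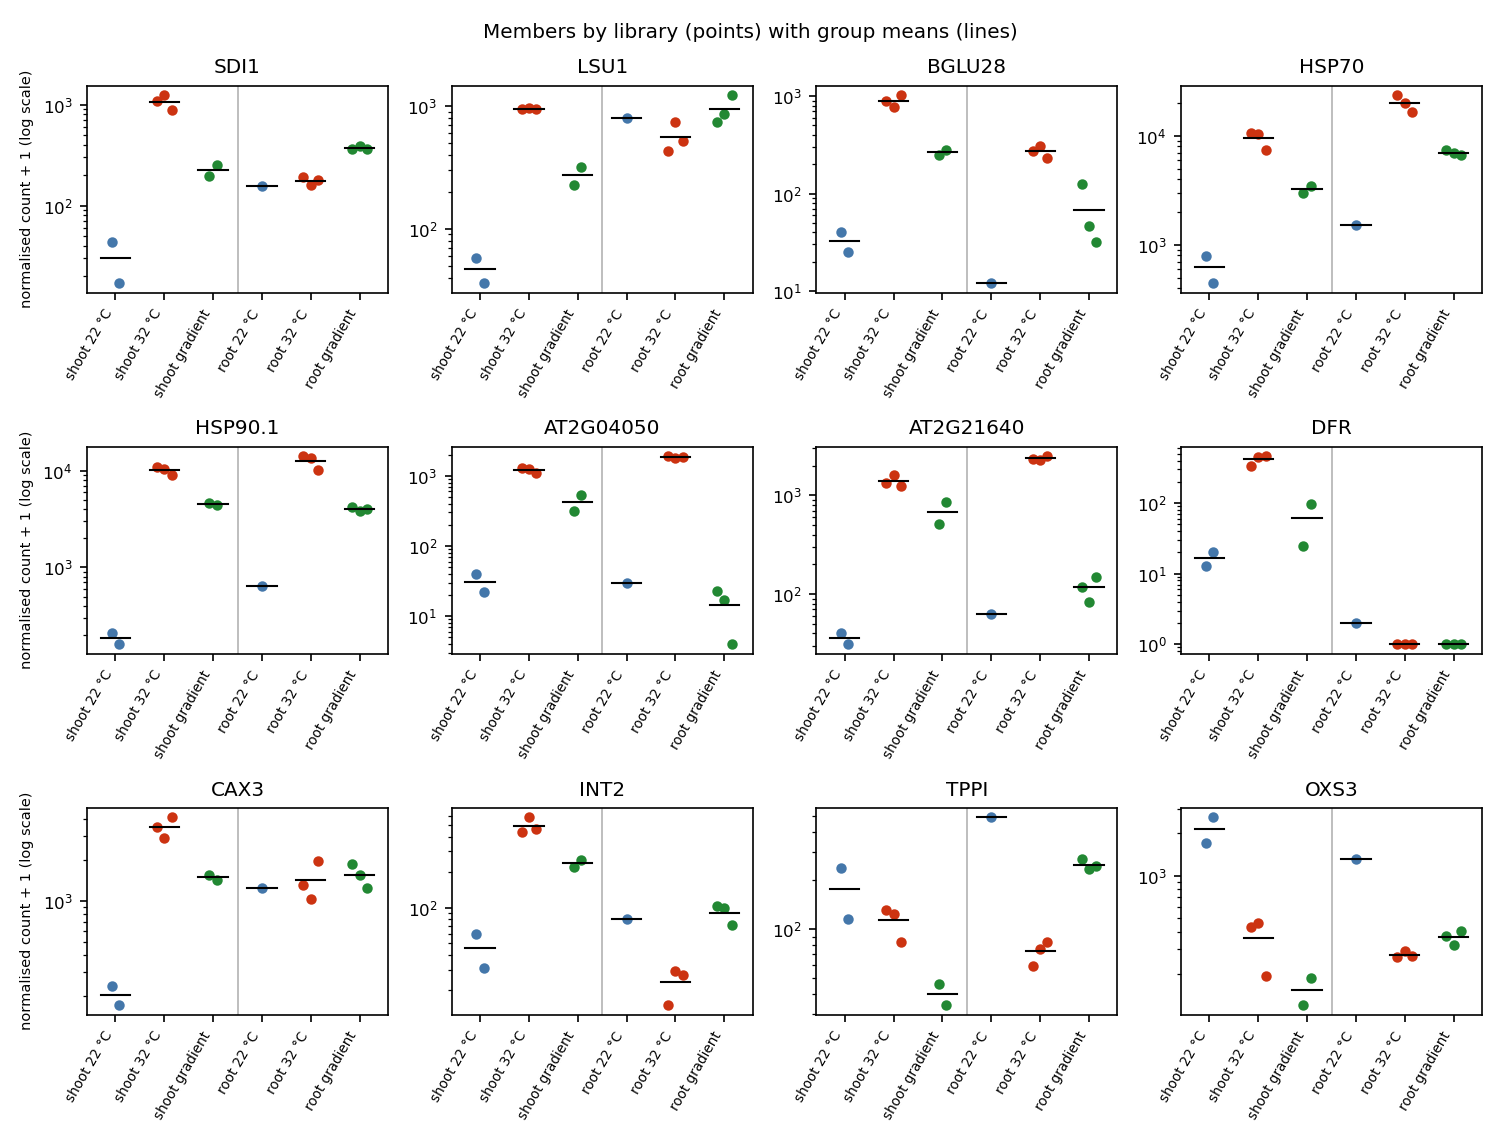
Normalised counts + 1 of 12 members in every library (points, log axis) with group means (lines), shoots left and roots right of the grey line. In HSP70, HSP90.1, AT2G04050 and AT2G21640 both organs are lower in the gradient than at 32 °C, whereas SDI1, INT2, TPPI and OXS3 are lower in gradient shoots and higher in gradient roots.

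The 10 detoxification, efflux and oxidative stress genes included the largest rise at 32 °C in shoots and the largest difference between gradient and 32 °C roots. AT5G09570, a Cox19-like protein of a mitochondrial family, stood at 10 and 13 in 22 °C shoots, at 1042, 1068 and 1129 at 32 °C and at 419 and 464 in the gradient. Its 86.5-fold difference between 32 °C and 22 °C was the largest of the 75. AT2G04050, a MATE family exporter, stood at 39 and 21, at 1286, 1246 and 1107, and at 315 and 536. AT2G21640 stood at 39 and 30, at 1338, 1595 and 1236, and at 508 and 853. In all 3, the gradient shoots stayed above every 22 °C library, at 35.4-fold, 13.8-fold and 19.2-fold.

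In gradient roots these 3 genes were far below 32 °C roots. AT2G04050 stood at 1885, 1808 and 1830 in 32 °C roots, at 22, 16 and 3 in the gradient and at 29 in the 22 °C library. The gradient roots were under the 22 °C library, and the log2 fold change was -7.31 ± 0.57 (SE, adjusted p = 0.000339). AT2G21640 stood at 2324, 2276 and 2475, at 117, 82 and 148, and at 62 (-4.38 ± 0.20, adjusted p = 8.8e-05). AT5G09570 stood at 2778, 2247 and 3379, at 330, 192 and 205, and at 22 (-3.55 ± 0.23, adjusted p = 0.000181). These last 2 stayed above the single 22 °C root library, by 0.85 for AT2G21640, which was not called, and 3.36 for AT5G09570 (log2). All 3 genes were apart between the warm root regimes.

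AT3G58150, of the OPA3 family, stood at 7 and 14 in 22 °C shoots, at 126, 112 and 109 at 32 °C and at 34 and 52 in the gradient. In roots it stood at 353, 331 and 408 at 32 °C and at 10, 12 and 13 in the gradient (-4.85 ± 0.21, adjusted p = 6.73e-05), near the value of 6 in the 22 °C library. UGT74E2, which glucosylates the auxin indole-3-butyric acid, was lower in gradient roots by -3.05 ± 0.16 (adjusted p = 8.8e-05), and ABCB11 by -1.47 ± 0.21 (adjusted p = 0.0019). GSTU25 stood at 256, 193 and 271 in 32 °C shoots and at 87 and 60 in the gradient, within reach of the 69 and 57 of 22 °C shoots. It was lower in gradient roots by -0.63 ± 0.13 (adjusted p = 0.00644).

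AT5G37940, a zinc-binding dehydrogenase, and AT1G80130, a tetratricopeptide repeat protein, were shoot genes. AT5G37940 stood at 14 and 11 in 22 °C shoots, at 152, 142 and 80 at 32 °C and at 31 and 32 in the gradient, and at 0 to 2 in roots. AT1G80130 stood at 248 and 167, at 1880, 2438 and 2968, and at 1281 and 975, and at 0 to 5 in roots. OXS3, a stress tolerance factor of the nucleus, went the other way against 22 °C, with 1708 and 2596 in 22 °C shoots, 429, 458 and 194 at 32 °C and 119 and 187 in the gradient. Of its gradient libraries one was just under the lowest 32 °C library and the other further below. The list of oxidative stress and detoxification genes held 13. Of the 10 that were not members none was called in gradient against 32 °C shoots (limma, adjusted p under 0.05). At an unadjusted p under 0.05, 8 were lower and 0 higher, with no share of all genes to set beside them. This list, too, was chosen with earlier results known and the contrast is the rule's own, so the counts are a description. Of these 10, APX1, a cytosolic ascorbate peroxidase gene, stood at 68.7%, the glutathione transferase gene GSTF8 at 72.5% and OPR1, an oxophytodienoate reductase gene, at 71.1%.

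The 3 P-loop ATPase genes were lower in the gradient than at 32 °C in both organs, in shoots by the choice of members. In roots all 3 were called lower, as were 51.4% of the tested members and 30.2% of all genes (limma, adjusted p under 0.05). AT2G18193 stood at 45 and 28 in 22 °C shoots, at 1789, 1470 and 1404 at 32 °C and at 481 and 682 in the gradient. In roots it stood at 640 at 22 °C, at 4192, 3743 and 4541 at 32 °C and at 840, 653 and 689 in the gradient. Its gradient roots were back near the 22 °C library while its gradient shoots were 15.5-fold above theirs, and the root log2 fold change of gradient minus 32 °C was -2.52 ± 0.13 (adjusted p = 8.8e-05). AT3G28580 (-2.81 ± 0.26, adjusted p = 0.000614) and AT1G43910 (-1.50 ± 0.12, adjusted p = 0.000455) were lower in gradient roots as well.

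The carriers of the mitochondrial dysfunction motif shown above can be read against these root values. Of the 9, 8 were tested in roots and called lower in gradient than in 32 °C roots; the motif is shown because of that, so this count is a description. Of all 379 genes with the motif that were tested in roots, 142 (37.5%) were called lower, against 30.2% of all genes tested. AT2G28815, the carrier named only, stood at 1053, 919 and 1148 in 32 °C roots and at 71, 34 and 67 in the gradient (-4.22 ± 0.27, adjusted p = 0.000173). AT4G22505, the ninth, was at 0 in every root library. Of the 268 loci with the motif and a 32 °C shoot mean of at least 100, 3.36% were members, so most genes with these letters were not among the 75.

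The gene with the deepest fall of all was in anthocyanin synthesis. DFR, dihydroflavonol reductase, which turns dihydroflavonols into pigment precursors, stood at 12 and 19 in 22 °C shoots, at 338, 449 and 458 at 32 °C and at 24 and 95 in the gradient. The gradient libraries differed widely, but both were far under the lowest 32 °C library, and their mean was 6.88-fold below that of 32 °C. AT4G14090, a UDP-glycosyltransferase of the same list, stood at 27 and 23, at 121, 160 and 167, and at 23 and 62. Its gradient replicate 1 was also the lower one and lay within the 22 °C range. DFR was at 0 in all warm root libraries. AT4G14090 was lower in gradient than in 32 °C roots by -0.92 ± 0.24 (adjusted p = 0.0169), a call that ended without replicate 2 of the 32 °C roots (adjusted p = 0.0617) or of the gradient roots (0.059). Of the 19 non-members on the phenylpropanoid, flavonoid and anthocyanin list, 2 were called lower in gradient shoots and none higher (limma). Of all genes, 0.266% and 0.124% were. At an unadjusted p under 0.05 the list counts were 8 and 0, again with no share of all genes beside them. These counts are a description, since the list was chosen with earlier results known and the contrast is the rule's own.

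Defence and calcium signalling gave 13 members with smaller rises at 32 °C, at a median of 3.0-fold over 22 °C shoots against 7.05-fold for all members. CNGC19, a calcium-permeable channel, stood at 52 and 15 in 22 °C shoots, at 161, 194 and 261 at 32 °C and at 54 and 76 in the gradient. PAD3, which makes the last step to the phytoalexin camalexin, stood at 40 and 53, at 113, 185 and 229, and at 52 and 67. SARD1, a calmodulin-binding family transcription factor of salicylic acid synthesis, stood at 125 and 73, at 117, 229 and 191, and at 79 and 88. In these genes the gradient shoots were at the level of the 22 °C shoots or just above, and the 22 °C and 32 °C libraries of SARD1 overlapped.

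CML41, a calmodulin-like protein, stood at 35 and 14, at 250, 291 and 400, and at 135 and 170, and thus kept more of its rise. JAZ8, a jasmonate repressor, stood at 114 and 6 in 22 °C shoots, which overlap the 55, 99 and 171 of 32 °C. Receptor genes in the group were the TIR-type genes RMG1, AT2G32140 and AT2G20142 and the receptor kinase gene AT3G24240. They stood 2.13, 2.3, 2.0 and 2.39-fold lower in the gradient than at 32 °C. The remaining members were AT1G29025, an EF-hand protein (2.27-fold), AT3G16330, an Avr9/Cf-9 elicited protein (2.54-fold), AT2G43610, a chitinase (2.35-fold), and AT1G53070, a lectin (2.04-fold).

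In roots 5 of these 13 were called lower in the gradient than at 32 °C and none higher (limma, adjusted p under 0.05). Of all genes 30.2% and 12.6% were, so the lower share is near that of all genes. At an unadjusted p under 0.05 the member counts were 5 and 1, with no share of all genes given. CNGC19 stood at 21 at 22 °C, at 403, 548 and 577 at 32 °C and at 275, 140 and 113 in the gradient (-1.62 ± 0.32, adjusted p = 0.00599). SARD1 stood at 28, at 174, 239 and 182, and at 63, 77 and 63 (-1.53 ± 0.19, adjusted p = 0.00141). Both were highest in 32 °C roots. PAD3 differed from them, with 813 in the 22 °C library, 314, 490 and 402 at 32 °C and 212, 219 and 152 in the gradient (-1.04 ± 0.21, adjusted p = 0.00628), so that each warm regime was lower than 22 °C. AT2G20142 (-0.90 ± 0.17, adjusted p = 0.00525) and AT3G24240 (-0.87 ± 0.14, adjusted p = 0.00305) were lower too. JAZ8 was not called (1.3 ± 0.53, adjusted p = 0.0817), with an adjusted p = 0.0412 without 32 °C root replicate 3.

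The 5 transporters all stood between 22 °C and 32 °C shoots in the gradient. CAX3, a vacuolar calcium and proton exchanger, stood at 236 and 171 in 22 °C shoots, at 3486, 2883 and 4090 at 32 °C and at 1554 and 1424 in the gradient. INT2, an inositol importer, stood at 59 and 30, at 435, 581 and 460, and at 221 and 254. SWEET13, a sucrose exporter, stood at 24 and 14, at 87, 128 and 129, and at 49 and 48. All 3 had the gradient between the other shoot regimes, with no overlap. PHT1;5, a phosphate transporter, stood at 12 and 15, at 355, 358 and 1043, and at 258 and 252, with 1 library at 32 °C far above the other 2. FRD3, a citrate exporter that keeps iron mobile in the xylem, stood at 57 and 40, at 293, 339 and 189, and at 119 and 151.

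In roots INT2 and SWEET13 were higher in the gradient than at 32 °C. INT2 stood at 80 at 22 °C, at 14, 28 and 26 at 32 °C and at 102, 98 and 70 in the gradient (1.98 ± 0.31, adjusted p = 0.00261), so the 32 °C roots were the low group. SWEET13 stood at 57, at 83, 65 and 120, and at 198, 164 and 162 (1.0 ± 0.24, adjusted p = 0.0126), with the gradient roots as the high group. FRD3 was lower, at 3336, 3678 and 2048 in 32 °C roots and 1274, 1326 and 1010 in the gradient (-1.29 ± 0.22, adjusted p = 0.00358). CAX3 was not called (0.15 ± 0.24, adjusted p = 0.645). PHT1;5 was not called either (1.2 ± 0.55, adjusted p = 0.109), but stood at 1.93 with an adjusted p = 0.00205 without 32 °C root replicate 3, whose 249 stood apart from 53 and 55.

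The 7 genes of metabolism were of unlike pathways. ICL, isocitrate lyase of the glyoxylate cycle, stood at 79 and 18 in 22 °C shoots, at 312, 1383 and 390 at 32 °C and at 304 and 185 in the gradient. The gradient value of replicate 1 was close to the lowest 32 °C library, and replicate 2 at 32 °C carried the mean. In roots ICL stood at 96 at 22 °C, at 22403, 38006 and 9340 at 32 °C and at 519, 402 and 328 in the gradient (-5.61 ± 0.45, adjusted p = 0.000395). Here every 32 °C library was over 10-fold above every gradient library.

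TPPI, a trehalose phosphate phosphatase, stood at 238 and 114 in 22 °C shoots, at 131, 124 and 82 at 32 °C and at 45 and 33 in the gradient. In roots it stood at 489, at 58, 75 and 83, and at 269, 235 and 244 (1.79 ± 0.17, adjusted p = 0.000697). The gradient was thus its lowest group in shoots and lay between 22 °C and 32 °C in roots. PYD4, an aminotransferase of pyrimidine breakdown, stood at 316 and 298, at 1733, 2089 and 1911, and at 690 and 729 in shoots. In roots it was called lower at 32 °C than at 22 °C (-2.26 ± 0.39, adjusted p = 0.00289), the opposite of its order in shoots, and was not called between gradient and 32 °C (0.11 ± 0.28, adjusted p = 0.773).

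PGDH, of serine synthesis, stood at 445 and 314 in 22 °C shoots, at 2991, 3208 and 3864 at 32 °C and at 1531 and 1501 in the gradient. In gradient against 32 °C roots it was not called (0.27 ± 0.13, adjusted p = 0.136), but passed with TMM scaling (0.47, adjusted p = 0.0456) and without gradient root replicate 3 (0.36, adjusted p = 0.0457). BCA3, a carbonic anhydrase, stood at 91 and 82, at 335, 329 and 396, and at 77 and 130 in shoots, with gradient replicate 1 under the 22 °C level. The P450 genes CYP72A8 and CYP705A1 stood 2.22-fold and 2.39-fold lower in gradient than in 32 °C shoots. In gradient roots CYP72A8 was lower (-1.28 ± 0.31, adjusted p = 0.0125) and CYP705A1 was not called (0.03 ± 0.13, adjusted p = 0.88).

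All 6 cell wall genes stood at least 2-fold higher in the single 22 °C root library than in 22 °C shoots, as did 54.7% of all members. Of nuclear genes with a mean of at least 10 over the organs at 22 °C, 33.4% did. CEL3, a cellulase, stood at 31 and 9 in 22 °C shoots, at 627, 722 and 496 at 32 °C and at 232 and 369 in the gradient, and kept 78.9% of its log2 rise. The extensin-like gene AT1G23720 stood at 165 and 194, at 1366, 1089 and 1799, and at 734 and 669. Both were apart between the 3 regimes. IRX15 and PGSIP1, of xylan synthesis, stood 2.16-fold and 2.07-fold lower in the gradient, the pectin lyase-like gene AT1G70500 2.18-fold and the peroxidase gene PRX25 2.66-fold.

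In roots CEL3 was lower in the gradient than at 32 °C (-1.27 ± 0.12, adjusted p = 0.000698). IRX15 was higher, at 489, 426 and 505 at 32 °C and 714, 616 and 594 in the gradient (0.44 ± 0.13, adjusted p = 0.025). That call ended in a fit of all libraries (adjusted p = 0.175), with the replicate block (0.0531) and without replicate 1 (0.0724) or 2 (0.0922) of the 32 °C roots or replicate 1 (0.0604) or 2 (0.0727) of the gradient roots. The other 4 were not called: AT1G23720 had an adjusted p = 0.128, or 0.0367 without gradient root replicate 1.

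The lipid transfer protein family gave 4 members, of which 3 are neighbours by locus number and were shoot genes. AT4G22505 stood at 3208 and 1905 in 22 °C shoots, at 218, 417 and 329 at 32 °C and at 169 and 147 in the gradient. AT4G22485 stood at 1097 and 356, at 109, 176 and 137, and at 82 and 54. For both genes every library fell in the order of 22 °C, 32 °C and gradient. AT4G22470 went up instead at 32 °C, with 63 and 126, then 288, 552 and 1031, then 281 and 229, and its gradient replicate 1 was just under the lowest 32 °C library. Reads of such neighbours may be shared, so their single values are uncertain. AT3G18280 stood at 347 and 320, at 1882, 2440 and 1945, and at 820 and 1119, and at 4339 in the 22 °C root library.

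Of the regulators, NF-YA10, a subunit of the trimeric CCAAT-binding factor, stood at 34 and 19 in 22 °C shoots, at 474, 613 and 474 at 32 °C and at 246 and 231 in the gradient. In roots it was lower in the gradient than at 32 °C (-0.99 ± 0.15, adjusted p = 0.00261). AHP4, a histidine phosphotransfer protein related to those of the cytokinin relay, stood at 23 and 21, at 252, 379 and 227, and at 126 and 90 in shoots. In roots it stood at 5 at 22 °C, at 26, 27 and 18 at 32 °C and at 19, 5 and 7 in the gradient, which overlap, and it reached the filter only with 32 °C roots.

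Several of the 9 members without a clear role were highest in 32 °C roots. AT5G52940, annotated with a domain of unknown function, stood at 33 and 48 in 22 °C shoots, at 322, 324 and 357 at 32 °C and at 110 and 152 in the gradient. In roots it stood at 0 at 22 °C, at 572, 471 and 724 at 32 °C and at 4, 4 and 9 in the gradient. It passed the root filter through 32 °C roots alone, so the filter had set the direction of its difference there. AT3G01345, an uncharacterised protein, stood at 0 in 22 °C roots, at 146, 171 and 97 at 32 °C and at 2, 13 and 3 in the gradient. The direction of its difference, too, was set by the filter. AT2G41730, annotated as a calcium-binding site protein, stood at 152 in 22 °C roots, at 1139, 1038 and 1238 at 32 °C and at 72, 80 and 84 in the gradient (-3.84 ± 0.13, adjusted p = 2.17e-05). In shoots AT2G41730 stood at 131 and 154, at 618, 537 and 649, and at 187 and 311, so its gradient shoots stayed above 22 °C while its gradient roots were below.

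AT5G21940, annotated as histidine kinase M-like, was the most abundant of these at 22 °C. It stood at 5414 and 6495 in 22 °C shoots, at 1362, 1333 and 747 at 32 °C and at 323 and 630 in the gradient, so every library fell in that order. In roots it stood at 6540, at 2136, 2423 and 1861, and at 2644, 2986 and 3418 (0.50 ± 0.14, adjusted p = 0.0225). The root call ended in a fit of all libraries (adjusted p = 0.128) and without replicate 1 (0.0739) or 3 (0.0681) of the 32 °C roots or replicate 2 (0.0761) of the gradient roots. The others, AT5G40800 (uncharacterised), AT4G15150 (a glycine-rich protein), AT4G31330 (a putative transmembrane protein) and AT5G45990 (a crooked neck protein), stood 2.77, 2.71, 2.51 and 2.06-fold lower in gradient than in 32 °C shoots.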

How the data were processed

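RNA-seq of roots and shoots was used in 14 distinct libraries. Values are a score: the authors' normalised read counts, deposited as whole numbers. How they were scaled, the genome build and the annotation are not stated in the labels. STAR 2.5.3a, HISAT2 and DESeq2 appear in the submitters' processing notes, which give them no role. Count tests were not used, and no counting intervals were computed because read depth is unknown. The members, gene lists, role groups and motifs shown were chosen with earlier results of these data known.

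Each organ had one fit with limma (version 3.58.1, R version 4.3.3) on log2(value + 1), with an intensity trend. Loci entered where 2 or more distinct libraries reached a value of 10, and two-sided p-values were adjusted by Benjamini-Hochberg over all tested loci. Residual degrees of freedom were 4 per organ. Fold changes on this scale understate those of low genes. The procedure was tested on simulated data. Names and products are RefSeq's for TAIR10.1, and 75 of 75 members matched; coordinates are those of the sequences shown on that build and not of the authors' files. The rule for named genes took members with the largest falls, the highest levels, shared families, list membership, root calls, the largest and smallest ratios to 22 °C, regulators, and those next to the limit. It named 58 of the 75, and the others were named after their values were seen.

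Alternatives were pseudocounts of 0.5 and 8, no filter, TMM factors (trims of 30% and 5%), a joint fit of both organs, a fit of the compared groups alone, identical columns kept apart, the replicate number as a block, each library left out in turn, other limits in the rule and, chosen after seeing the data, identical columns counted in the filter and a filter without 32 °C roots. Same-numbered 32 °C and gradient roots did not deviate together (correlations of -0.0275, -0.145 and -0.253). In shoots the same-numbered correlations were mixed: 0.0534 and 0.337 for 32 °C and gradient, and 0.284 for 22 °C and gradient. For 22 °C and 32 °C shoots they were -0.254 and 0.0702. With 2 libraries in a group, the deviations mirror each other. Numbers were not used as pairs in the main fit of either organ.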

Additional observations from a re-analysis of the deposited data

Results flagged for a closer look

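For 7 members every gradient library was below every 32 °C library in shoots and above every one in roots. That is 9.33% of the 75. Of nuclear loci with a mean of at least 10 in either root group, a higher share, 16.6%, had gradient roots wholly above 32 °C roots. The difference between organs was not tested. The gradient over 32 °C ratio of means + 1 in roots was 3.85 for INT2, 3.43 for TPPI, 2.1 for SDI1, 1.94 for SWEET13, 1.41 for AT5G21940, 1.35 for IRX15 and 1.34 for OXS3. The shoot side of this pattern was fixed by the choice of members. All 7 were called higher in gradient roots (limma, adjusted p under 0.05), but from the same root libraries that picked them out. These calls are therefore a description. Exceptions under alternative runs are given above and, for OXS3, below.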

How the results depend on the processing

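No root call of a single member changed sign under any alternative run; of 3430 single values under alternatives 43 took another sign, none of them called in either setting, such as MBF1C, CAX3, PYD4 and CYP705A1 between gradient and 32 °C. Of the comparisons of single members under alternatives, 40 for gradient minus 32 °C, 60 for 32 °C minus 22 °C and 98 for gradient minus 22 °C lost their call. The count of members was 32 with a ratio of at most 0.4 and 256 with 0.6. It was 70 to 144 with 1 shoot library left out: 135 without 32 °C replicate 1, of which 72 were among the 75, 124 without gradient replicate 1 (58 shared) and 144 without gradient replicate 2 (65 shared), settings with fewer libraries to overlap. Members called higher in gradient than in 32 °C roots numbered 8, or 5 in a fit of all libraries and 4 to 9 with 1 library left out (4 without 32 °C replicate 1, 5 without gradient replicate 2). The higher call of OXS3 (adjusted p = 0.031) ended in a fit of all libraries (0.252), with the replicate block (0.0788) and without any of the 32 °C root replicates (0.116, 0.058 and 0.0705) or gradient replicate 1 (0.0607). Members higher in gradient than in 22 °C roots numbered 27, or 16 in a fit of only these groups and 14 to 30 with 1 library left out (14 without gradient replicate 2). With the replicate number as a block, this count was 13 or 15, depending on which number the identical columns took. That number was not shown to pair these samples. With the block, 4 in place of 7 members were called lower in 32 °C than in 22 °C roots. Other member counts stayed within 1.5 times. Read depth is unknown, so no limit of detection can be given.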
